A study of Rattus norvegicus with 6 samples.

Results

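The activin and inhibin genes studied here are 10 genes that encode the subunits of activins and inhibins, their binding proteins and their receptors. Members were taken as probe sets that the platform annotation assigns to exactly 1 symbol, that symbol being Inhba, Inhbb, Inhbc, Inhbe, Inha, Fst, Fstl3, Acvr1b, Acvr2a or Acvr2b. All 10 genes were measured, of 14506 genes named on the array. Each had 1 probe set, so the rule of taking the probe set with the highest mean never had to choose. The family was chosen by a measured value, because Inhba was among the 9 probe sets past the test for protein in the whole series. The protein difference of Inhba is therefore given as a description, with no test.

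The livers came from adult male Wistar rats, 30 in all, on 1 of 6 diets for 5 weeks (33 to 37 days), after all had eaten the normal protein diet for 10 days. Every animal was in a fed state, killed 2 h after a fixed meal of 87.6 kJ. The diets combined 2 protein levels with 3 backgrounds. With normal protein the diets were NP (low fat), NP-HS (high sucrose, low fat) and NP-HS-HF (high sucrose, high fat), and with high protein HP, HP-HS and HP-HS-HF had the same backgrounds. For each diet, RNA from the livers of its 5 rats was combined, at 1500 ng per rat, and measured on 1 array, so the differences between rats of a diet are not seen. The source labels call the animals mice, whereas the organism and the growth protocol give rat. Values are log2 expression per probe set, computed by the authors with RMA (robust multi-array average), and a difference of 1 on this scale is a 2-fold change. Levels of different probe sets are not compared, because probes differ in how brightly they bind.

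Activins are dimers of inhibin beta subunits and belong to the TGF-beta family of secreted signals. Activin A binds a type II receptor, ActRIIA or ActRIIB, which engages the type I receptor ALK4, and SMAD proteins then carry the signal to the nucleus. Follistatin and follistatin-like 3 bind activins outside the cell and neutralise them, and a dimer of a beta subunit with the alpha subunit is an inhibin, which opposes activin at the receptor. In liver, activin A is known as a brake on hepatocyte growth, and the beta C and beta E subunits are made mainly by hepatocytes.

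The upstream sequences of 3 subunit genes are shown, those of Inhba, the member that differed between protein levels, and those of Inhbe and Inhbc, which lie next to each other with 0 annotated genes between them. Each is the 250 bases before a start site in RefSeq (rat, build GRCr8), 5′ to 3′ on the gene's strand. RefSeq's table held such a sequence for 9 of the 10 members. Capitals mark matches to any of 7 motifs searched on both strands. These were the TATA box as TATAAA, the CCAAT box, the cyclic AMP response element as TGANGTCA, the AP-1 motif as TGANTCA, the E-box as CACGTG, the FoxO motif as GTAAACA and the SMAD palindrome as GTCTAGAC. The Inhba sequence belongs to a start site that lies 6434 bases inside the annotated gene, downstream of its outermost start. Which start site of Inhba is used in these livers was not tested.
Inhba, chr17:53804509-53804758, minus strand: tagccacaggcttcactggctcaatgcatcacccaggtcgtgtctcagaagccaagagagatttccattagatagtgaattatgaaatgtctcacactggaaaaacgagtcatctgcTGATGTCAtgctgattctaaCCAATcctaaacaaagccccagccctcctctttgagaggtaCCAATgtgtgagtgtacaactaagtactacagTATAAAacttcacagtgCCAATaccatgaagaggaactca
Inhbe, chr7:65064520-65064769, minus strand: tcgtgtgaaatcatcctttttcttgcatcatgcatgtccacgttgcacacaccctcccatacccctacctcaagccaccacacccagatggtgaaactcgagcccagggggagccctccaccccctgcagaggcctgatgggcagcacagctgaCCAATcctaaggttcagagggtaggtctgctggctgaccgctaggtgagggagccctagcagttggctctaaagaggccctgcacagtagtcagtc
Inhbc, chr7:65082920-65083169, minus strand: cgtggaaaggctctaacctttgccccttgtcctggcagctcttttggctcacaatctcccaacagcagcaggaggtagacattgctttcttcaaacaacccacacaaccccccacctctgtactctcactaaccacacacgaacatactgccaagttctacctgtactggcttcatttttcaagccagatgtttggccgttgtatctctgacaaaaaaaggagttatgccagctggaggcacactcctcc

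The Inhba window held a TATAAA match from base -40 to base -35, counted back from the start site. It also held CCAAT at 3 places and TGATGTCA, a match to TGANGTCA, from base -133 to base -126. TGANGTCA was in 8.9 percent of the 33469 windows of this length. TATAAA was in 12.9 percent of them and CCAAT in 34.0 percent. The Inhbe window held 1 match, a CCAAT from base -96 to base -92, and the Inhbc window held 0. Among the other members' windows, Fstl3 held TATAAA and Acvr1b the E-box CACGTG (5.6 percent of windows). TGANTCA (6.3 percent), GTAAACA (3.2 percent) and GTCTAGAC (0.2 percent) matched 0 of the 9 windows. A match is a run of letters, not a bound site, and the motifs were chosen with the diet results known.

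Inhba, which encodes the beta A subunit of activin A, was lower on every high protein array than on any normal protein array (probe set 10798702). Its log2 level was 8.38 on NP, 8.59 on NP-HS and 8.64 on NP-HS-HF. With high protein it was 7.27 on HP, 7.28 on HP-HS and 7.26 on HP-HS-HF. The 3 normal protein arrays spanned 0.26 and the 3 high protein arrays 0.025, and the gap between the groups was several times either span. The differences at equal background were -1.11 with low fat, -1.30 with high sucrose and -1.38 with high sucrose and high fat. The fitted protein difference was -1.27 ± 0.078 (SE, 3 pairs of arrays), a 2.4-fold lower level. In bulk liver, fewer cells of a type and less RNA per cell cannot be told apart.

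**Figure D1:**
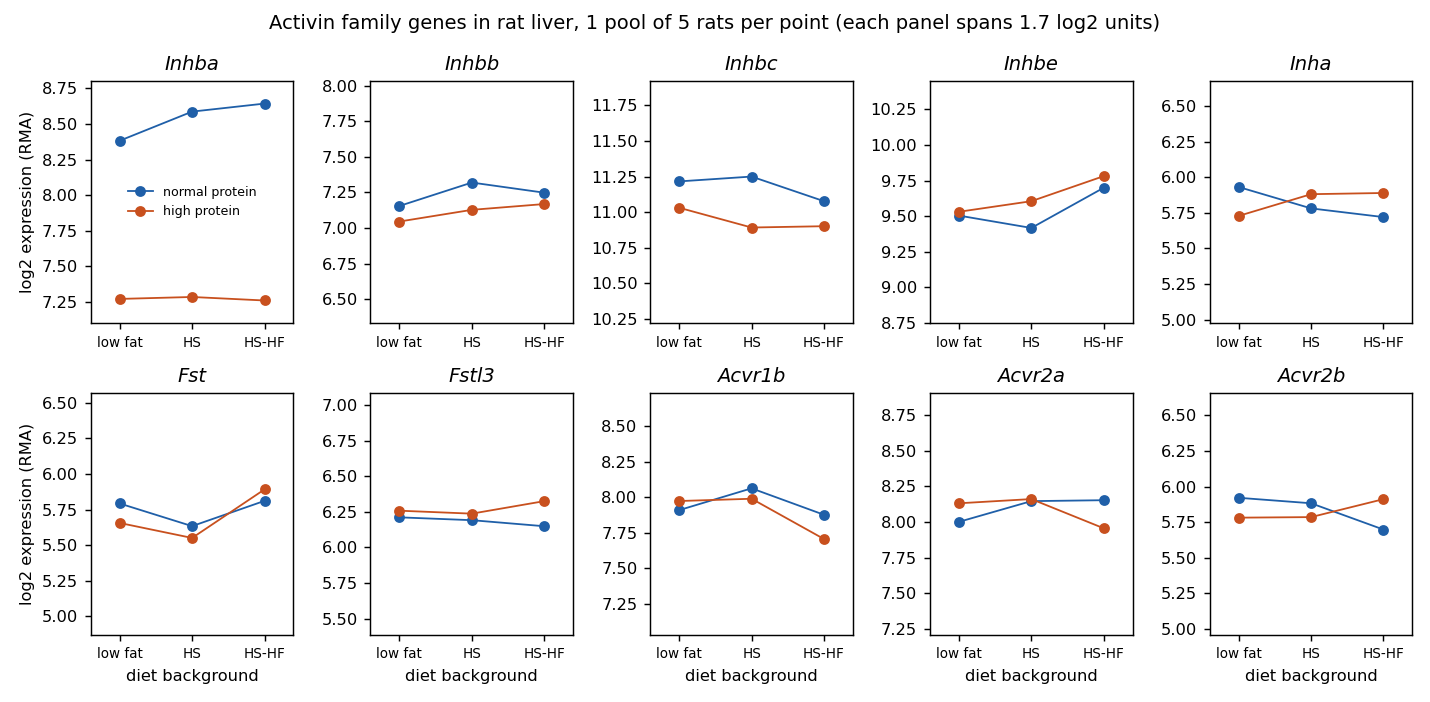
Log2 expression (RMA, vertical axes, each spanning 1.7 units) of the 10 genes on the 3 backgrounds, where HS stands for high sucrose and HF for high fat, with 1 array per point, a pool of 5 rats. Inhba lies between 7.26 and 7.28 with high protein (orange) and between 8.38 and 8.64 with normal protein (blue), and in 7 of the 10 panels the colours overlap.

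By fitted size this was the lowest protein difference of the 20450 probe sets tested. A level at least 2-fold lower with high protein in all 3 backgrounds was found for 2 probe sets (0.00978 percent), Inhba and Vnn1, the pantetheinase vanin 1. Inhba spanned 1.38 over the 6 arrays, a span at or above that of 99.6 percent of tested probe sets. The rank by fitted size, the 2-fold count and the span reflect values of the contrast that chose the family. They describe Inhba, and nothing more is read from them. The other 9 members spanned between 0.18 (Fstl3) and 0.36 (Inhbe). The call on Inhba, an adjusted p under 0.05 with limma, was 1 of 10 members against 0.044 percent of all probe sets, and nothing is read from that count because this contrast chose the family. The call ended with an ordinary t statistic, and when an array of the low fat pair (NP, HP) or of the high sucrose pair (NP-HS, HP-HS) was left out. Leaving out either array of a pair gives the same protein fit, because the other array then informs its background alone. Each such fit has fewer residual degrees of freedom than the 2 of the full fit. The fitted difference lay between -1.34 and -1.21 whichever of the 3 pairs lost an array.

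Within normal protein, the Inhba level was 0.20 higher on NP-HS than on NP and 0.26 higher on NP-HS-HF than on NP. Within high protein the same differences were 0.014 and -0.011. The fitted sucrose difference was 0.11 ± 0.095 (SE, 2 pairs, adjusted p = 1 by limma) and the fitted sucrose and fat difference 0.12 ± 0.095 (adjusted p = 0.9997). Whether the response to sucrose depends on the protein level was tested in 1 of its possible forms, chosen after seeing the data. This was a term for the protein difference on both high sucrose backgrounds minus that with low fat, which leaves 1 residual degree of freedom, whereas the full interaction leaves none. For Inhba the term was -0.23 ± 0.136 (SE, adjusted p = 0.779 by limma). It passed for 0 of the 10 members and 0 of the 20450 probe sets (0 percent), and 0 members but 6.61 percent of probe sets had an unadjusted p under 0.05. The normal protein arrays held both the higher levels and the wider span.

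Inhbc encodes the beta C subunit, a hepatocyte product (probe set 10903053). Its log2 level was 11.22 on NP, 11.25 on NP-HS and 11.08 on NP-HS-HF, against 11.03 on HP, 10.89 on HP-HS and 10.90 on HP-HS-HF. The lowest normal protein array lay above the highest high protein array, so the groups did not overlap, by a margin smaller than either group's own span. The differences at equal background were -0.19, -0.36 and -0.18, and the fitted difference was -0.24 ± 0.072 (SE, 95 percent interval -0.41 to -0.067). This did not pass limma's test over all probe sets (unadjusted p = 0.0141, adjusted p = 0.419). Groups that did not overlap were found for 3 members, Inhba, Inhbc and Fstl3, and for 14.9 percent of all tested probe sets. Inhba is in that count through the contrast that chose the family, so nothing is read from the count. Inhba and Inhbc lay lower with high protein, as did 7.58 percent of probe sets, and Fstl3 higher, as did 7.35 percent.

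Inhbe, the neighbour of Inhbc, encodes the beta E subunit (probe set 10903048). It stood at 9.50, 9.42 and 9.70 on NP, NP-HS and NP-HS-HF, and at 9.53, 9.61 and 9.78 on HP, HP-HS and HP-HS-HF. The groups overlapped, and both groups were highest on their high sucrose high fat array. Its protein difference was 0.099 ± 0.069 (SE, adjusted p = 0.773 by limma), with 0.027, 0.19 and 0.082 in the 3 backgrounds. Inhbc and Inhbe thus had fitted protein differences of opposite sign, and neither passed the test.

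Inhbb, which encodes the beta B subunit of activin B, lay between 7.15 and 7.32 with normal protein and between 7.05 and 7.17 with high protein. It was lower with high protein in each background, by values of -0.11, -0.19 and -0.080, and the groups overlapped. The fitted difference was -0.13 ± 0.066 (SE, 95 percent interval -0.29 to 0.033, adjusted p = 0.683 by limma). Inha, the alpha subunit that makes a beta subunit into an inhibin, lay between 5.72 and 5.93 with normal protein and between 5.73 and 5.89 with high protein. Its protein difference was -0.20 with low fat, 0.10 with high sucrose and 0.17 with high sucrose and high fat, so no one direction held. The fitted value was 0.022 ± 0.090 (SE, 95 percent interval -0.20 to 0.24).

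Of the 2 genes for activin-binding proteins, Fstl3 was a little higher on every high protein array (probe set 10900782). Its log2 level was 6.21, 6.19 and 6.15 on NP, NP-HS and NP-HS-HF and 6.26, 6.24 and 6.32 on HP, HP-HS and HP-HS-HF. The groups did not overlap, yet the fitted difference of 0.090 ± 0.068 did not pass (SE, adjusted p = 0.791 by limma). Fst, which encodes follistatin (probe set 10821408), stood at 5.79, 5.63 and 5.81 with normal protein and at 5.66, 5.55 and 5.89 with high protein, in the same order of backgrounds. These groups overlapped, and the fitted protein difference was -0.046 ± 0.073 (SE, adjusted p = 0.92). The 95 percent interval for Fst was -0.22 to 0.13, and whether its probe set detected Fst RNA was not tested.

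The receptor genes had no one direction across the 3 backgrounds. Acvr2a, the type II receptor ActRIIA, averaged 8.10 ± 0.086 (SD, 3 arrays) with normal and 8.08 ± 0.11 with high protein, its extremes being HP-HS-HF (7.96) and HP-HS (8.16). Acvr2b, the type II receptor ActRIIB, lay between 5.70 and 5.92 with normal and between 5.78 and 5.91 with high protein. Acvr1b, the type I receptor ALK4, lay between 7.88 and 8.06 with normal and between 7.71 and 7.99 with high protein. All 3 pairs of groups overlapped. With low fat, high sucrose and high sucrose with high fat, the differences were 0.13, 0.015 and -0.20 for Acvr2a. In the same order they were -0.14, -0.097 and 0.21 for Acvr2b and 0.064, -0.073 and -0.17 for Acvr1b. The fitted protein differences were -0.017 ± 0.083 for Acvr2a, -0.0077 ± 0.089 for Acvr2b and -0.060 ± 0.074 for Acvr1b (SE, adjusted p by limma between 0.893 and 0.992), and each 95 percent interval stayed within -0.24 and 0.21.

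**Figure D2:**
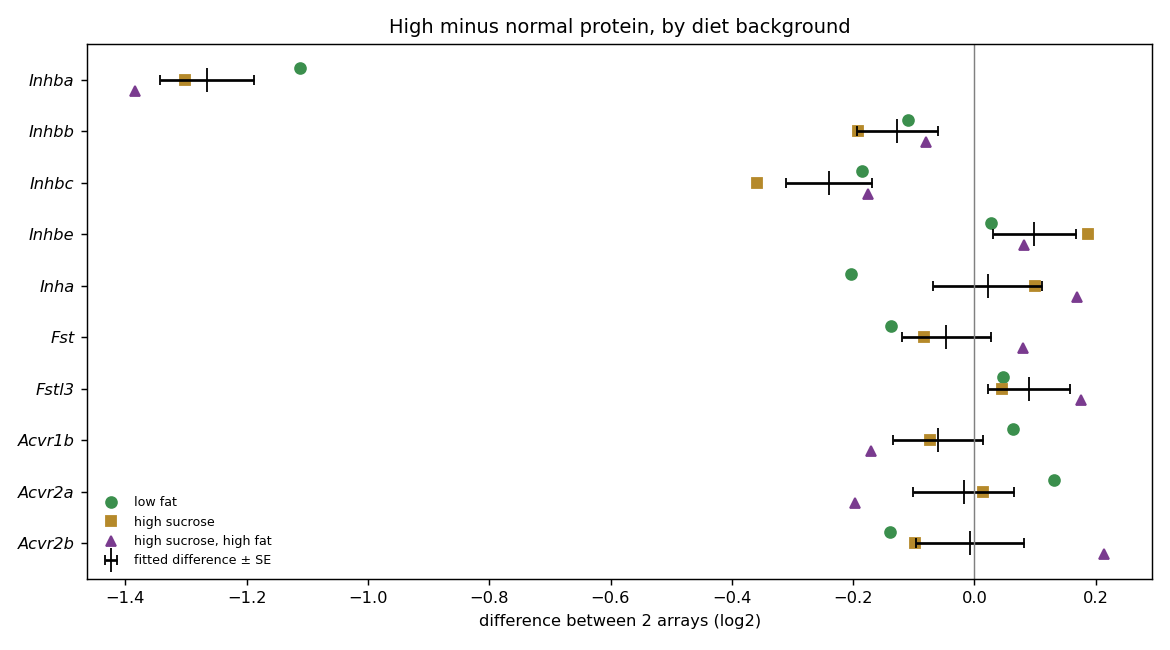
Difference in log2 expression between the high and the normal protein array of each background (coloured symbols), with the fitted protein difference and its SE (black). Inhba lies between -1.38 and -1.11, and the other 9 genes lie between -0.36 and 0.21.

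Over the 10 members, 5 had a protein difference of 1 direction in all 3 backgrounds, as had 29.5 percent of all tested probe sets. These were Inhba, Inhbb and Inhbc, all lower with high protein, and Inhbe and Fstl3, both higher. The median fitted difference was -0.032, beside -0.0014 over all probe sets. Of the 9 members other than Inhba, 1 had an unadjusted p under 0.05, Inhbc, beside 8.71 percent of probe sets. At 1.5-fold or more, Inhba was the member that differed in each background, where 1.38, 1.39 and 1.5 percent of probe sets did. The direction and size of the Inhba difference are those of the contrast that chose the family. Nothing is therefore read from the part of Inhba in the counts and the median given here. Swapping protein labels within the 3 pairs of a single gene cannot give a two-sided p below 0.25, so the fit across all probe sets was used.

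Sucrose and fat were compared within each protein level. By limma 0 of the 10 members passed for high sucrose against low fat, for fat added to high sucrose, or for both against low fat, and 0 of the 20450 probe sets did (0 percent for each). These 3 comparisons share arrays with each other. An unadjusted p under 0.05 was reached by 0 members for sucrose, where 3.02 percent of probe sets reached it, and by 1 member, Inhbe, for sucrose and fat, where 5.18 percent did. For fat added to high sucrose 3 members reached it, Inhbe, Fst and Acvr1b, beside 4.95 percent of probe sets. An ordinary t statistic also gave 0 adjusted calls for each of the 3.

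The 3 members with the lowest p for fat are given as values. The level of Inhbe was 0.28 higher on NP-HS-HF than on NP-HS and 0.18 higher on HP-HS-HF than on HP-HS, with a fitted difference of 0.23 ± 0.084 (SE, adjusted p = 0.972 by limma). Fst was 0.18 and 0.34 higher in the same pairs, with a fitted difference of 0.26 ± 0.090 (SE, adjusted p = 0.952). Acvr1b differed by -0.19 and -0.28, with a fitted difference of -0.23 ± 0.090 (SE, adjusted p = 0.985). These 3 were the members whose fat difference had 1 direction at both protein levels, as had 51.1 percent of all probe sets. Differences of 1.5-fold were reached by 0 members in any of the 6 pairs of arrays that differ in sucrose or fat, beside a small share of all probe sets. That share was 0.866 percent from NP to NP-HS and 0.89 percent from HP to HP-HS. It was 0.934 percent from NP-HS to NP-HS-HF and 1.27 percent from HP-HS to HP-HS-HF. From low fat to high sucrose and high fat it was 1.16 percent with normal and 1.19 percent with high protein.

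**Figure D3:**
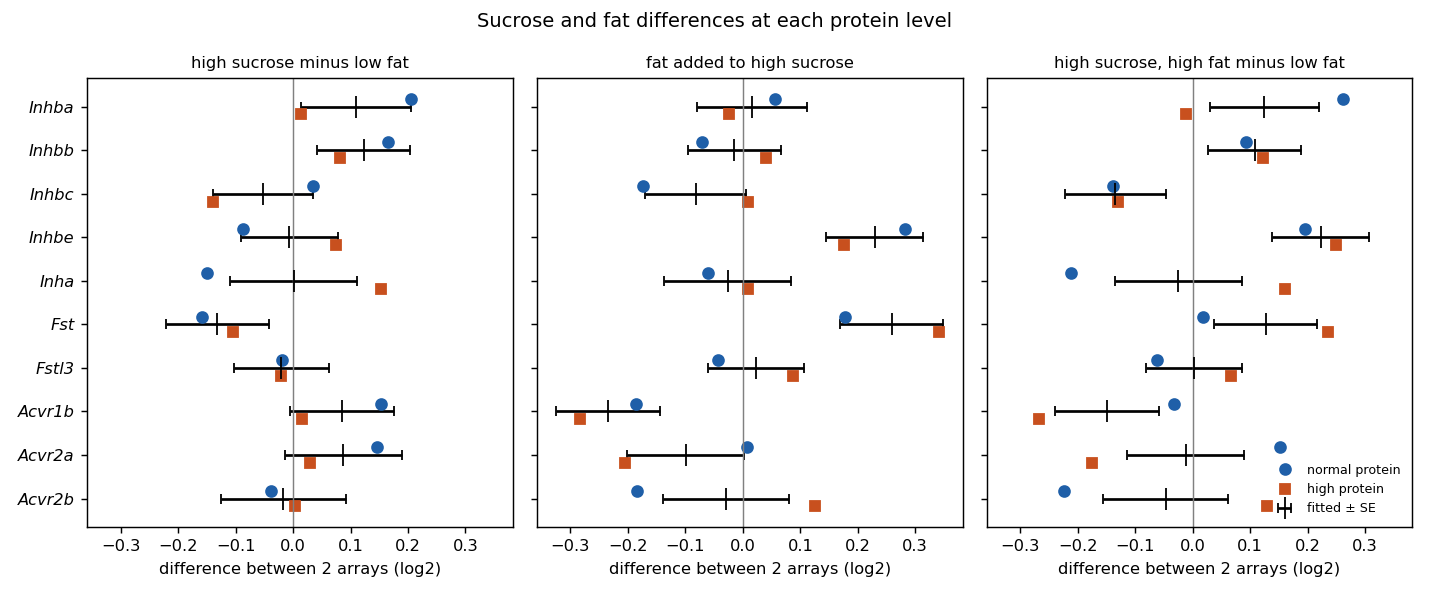
Differences in log2 expression between 2 arrays at normal (blue) and high protein (orange) for high sucrose, for fat added to it and for both, with fitted differences and SE in black. Inhbe and Fst lie above 0 and Acvr1b below 0 at both protein levels in the panel on added fat, and all differences lie between -0.28 and 0.34.

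The sucrose and the combined comparisons gave smaller or mixed values. The fitted sucrose differences of the 10 members lay between -0.13 (Fst) and 0.12 (Inhbb), with 5 above 0 and 5 below, and a median of -0.0025. In 6 members the sucrose difference had the same direction at both protein levels, beside 44.4 percent of probe sets. For sucrose and fat together, Inhbe had the highest fitted difference, 0.22 ± 0.084 (SE, adjusted p = 0.925 by limma), and Acvr1b the lowest, -0.15 ± 0.090 (SE, adjusted p = 0.996). In 5 members that difference had 1 direction at both protein levels, where 47.6 percent of probe sets did.

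The genes whose pattern was most like that of Inhba were sought among 827 named genes that spanned at least 0.5 over the 6 arrays. By Pearson correlation of log2 values over the 6 arrays, the 5 highest were Nuak1 (0.98), which encodes a kinase related to AMPK, and Gemin6, Vnn1, Rhpn2 and Odad4 (each 0.97). Gemin6 is part of the SMN complex, which assembles splicing particles. These correlations share the same 6 arrays and follow mostly from the split between protein levels. Nuak1 stood at 8.01, 8.26 and 8.32 on NP, NP-HS and NP-HS-HF and at 7.40, 7.56 and 7.31 on HP, HP-HS and HP-HS-HF. Vnn1 lay between 9.29 and 9.65 with normal protein and between 8.11 and 8.46 with high protein. Among the members themselves, the correlation farthest from 0 with Inhba was that of Fstl3, at -0.85 over the 6 arrays.

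**Figure D4:**
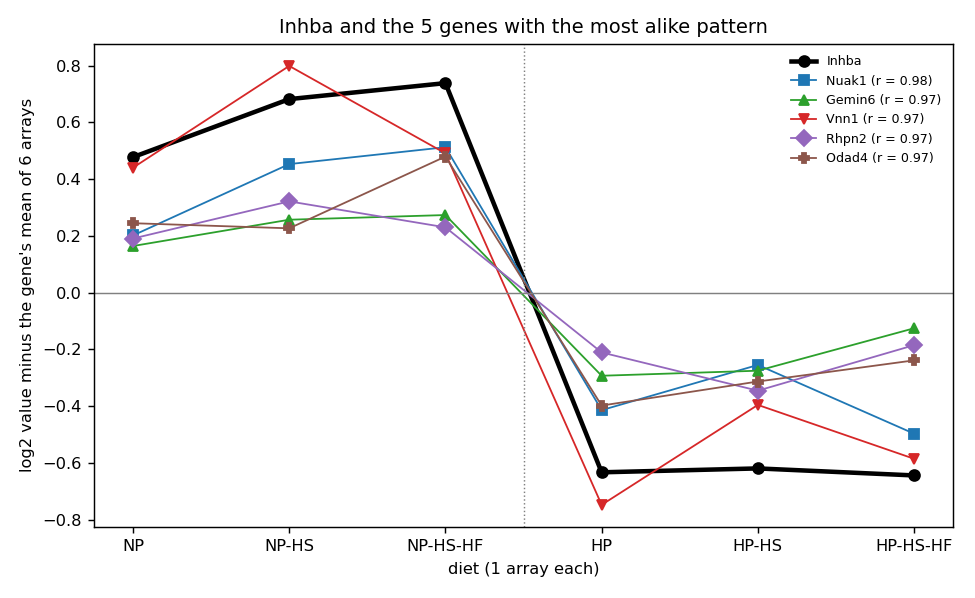
Log2 value minus the gene's mean over the 6 arrays (vertical axis) on each diet, for Inhba (black) and the 5 genes with the highest correlation with it. All 6 genes lie above 0 on the 3 normal protein arrays and below 0 on the 3 high protein arrays.

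The other genes of the pathway were taken from 5 lists: TGF-beta family ligands, receptors and co-receptors, antagonists and pro-protein convertases, SMADs and their regulators, and SMAD-responsive genes. Of 88 measured genes, 81 passed the filter on low values. By limma 0 of the 81 passed for any of the 4 effects, with 9 at an unadjusted p under 0.05 for protein, 3 for sucrose, 4 for fat and 6 for both together. Over all probe sets that p was reached by 8.71, 3.02, 4.95 and 5.18 percent. The ordinary t statistic gave 0 adjusted calls over all probe sets. The median fitted protein difference was 0.0061, beside -0.0014 over all probe sets. High and normal protein arrays did not overlap for 13 of the 81 (16.0 percent), 5 higher and 8 lower with high protein, beside 14.9 percent of all probe sets.

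Among the 18 other ligands tested the protein differences ran from -0.18 to 0.25. Gdf15, a stress-induced hormone, lay between 6.09 and 6.36 with normal protein and between 6.07 and 6.57 with high protein. Bmp2, which signals to hepatocytes to raise hepcidin, lay between 7.20 and 7.73 with normal and between 7.25 and 7.53 with high protein. Among 12 other receptors and co-receptors, Acvr1, the BMP type I receptor ALK2, lay between 8.37 and 8.51 with normal protein and between 8.19 and 8.36 with high protein. Hjv, the BMP co-receptor hemojuvelin, lay between 10.03 and 10.19 and between 9.56 and 9.97. Their fitted differences of -0.19 ± 0.081 and -0.27 ± 0.118 did not pass (SE, adjusted p = 0.604 and 0.593 by limma). Rgma and Bmpr1a, of the same list, had wider spans than Acvr1, and their groups overlapped. The fitted differences of Rgma and Bmpr1a were 0.20 ± 0.108 and -0.11 ± 0.095 (SE, adjusted p = 0.696 and 0.82 by limma).

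Pcsk5, a convertase that cleaves pro-proteins of this family, had the highest fitted protein difference of the 81, 0.37 ± 0.077 (SE, adjusted p = 0.237 by limma). It stood at 7.63, 7.49 and 7.56 on NP, NP-HS and NP-HS-HF and at 7.85, 7.98 and 7.97 on HP, HP-HS and HP-HS-HF, so the groups did not overlap. Smad3, a transcription factor that carries the activin signal, stood at 7.31, 7.49 and 7.35 with normal protein and at 7.14, 7.18 and 7.09 with high protein. These groups did not overlap either, and the fitted difference was -0.25 ± 0.068 (SE, adjusted p = 0.375). Of the 19 SMADs and regulators tested, Smad3 was the 1 whose groups did not overlap. Chrdl1, of the antagonist list, spanned more than Pcsk5, and Smad9 more than Smad3, and the groups of both overlapped. The fitted differences of Chrdl1 and Smad9 were -0.12 ± 0.146 and 0.079 ± 0.076 (SE, adjusted p = 0.894 and 0.847 by limma). The receptor-regulated Smad2, the shared Smad4 and the inhibitory Smad7 had fitted differences of -0.016, -0.047 and -0.013.

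Of 19 SMAD-responsive genes, Hamp, which encodes hepcidin, had the widest span. Its level lay between 9.03 and 9.72 on 5 of the arrays and was 6.94 on HP-HS. Its protein difference was 0.17 with low fat, -2.79 with high sucrose and -0.15 with high sucrose and high fat, and the fitted value was -0.92 ± 0.529 (SE, adjusted p = 0.718 by limma). Atoh8 and Gadd45b, both known to respond to signals of this family, had fitted differences of 0.19 ± 0.067 and 0.21 ± 0.066 (SE, adjusted p = 0.494 and 0.436). Cdkn1a, the cell cycle inhibitor p21, had -0.17 ± 0.122 (SE, adjusted p = 0.778), with overlapping groups. The median over the 19 was 0.014.

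**Figure D5:**
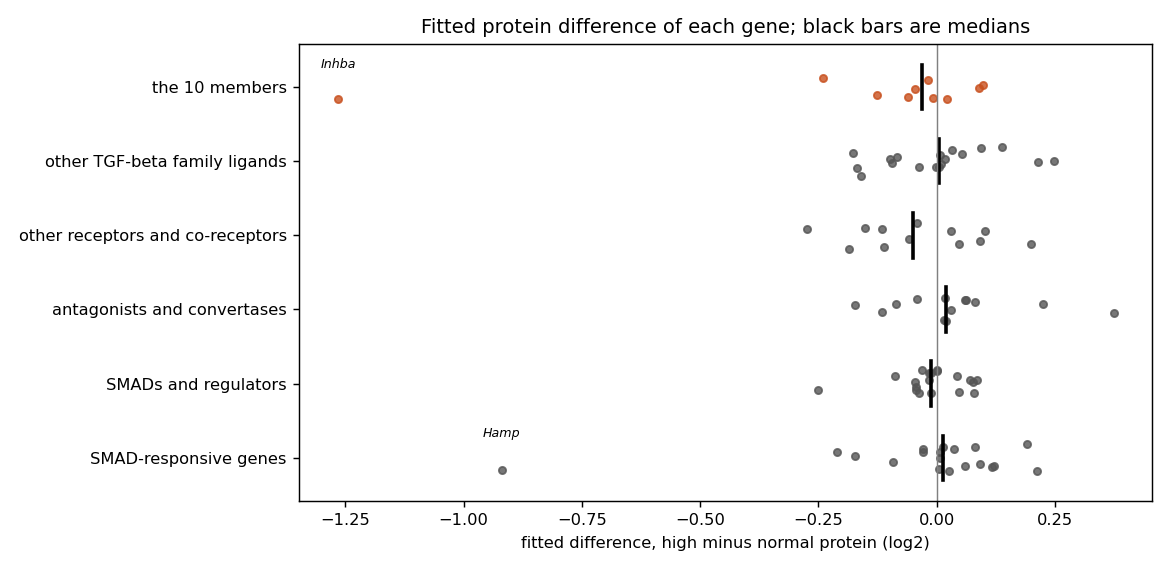
Fitted difference in log2 expression, high minus normal protein, of each of the 10 members and of the 81 tested genes of the 5 pathway lists, with black bars at the medians. Inhba at -1.27 and Hamp at -0.92 stand apart, and the other genes lie between -0.27 and 0.37.

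The tissue label was checked against 8 hepatocyte markers, of which Alb, albumin, stood at 13.81 on NP and 13.79 on HP. Tat, the amino acid-degrading enzyme tyrosine aminotransferase, was higher on every high protein array, between 12.89 and 13.09, against 12.65 to 12.74 with normal protein. Its fitted difference was 0.30 ± 0.078 (SE, adjusted p = 0.359 by limma). The markers Apob and Ttr were lower on every high protein array, with fitted differences of -0.052 and -0.032. Of the 8 markers, 4 had a fitted protein difference above 0. Among all tested probe sets, 14.9 percent did not overlap between protein levels. The hepatocyte markers' mean deviation from their own mean over the arrays lay between -0.052 and 0.0006 with normal and between -0.019 and 0.038 with high protein. For 2 other cell types the mean deviation of the markers did not overlap between protein levels. Single markers often did overlap. These were Cd163, Clec4f, Cd5l, Marco, Mrc1 and Csf1r among the macrophage markers, and every endothelial marker but Cdh5. The macrophage markers Cd68, Vsig4, C1qa, C1qb and C1qc did not overlap and were higher with high protein. Of the 11 macrophage markers, 7 had an unadjusted p under 0.05 for protein by limma, all higher, beside 8.71 percent of probe sets. After adjustment 0 of them passed. The 11 measured macrophage markers, all above the filter, had a mean deviation of -0.15 to -0.031 with normal and -0.0041 to 0.19 with high protein. The 7 measured endothelial markers lay between -0.088 and 0.014 and between 0.030 and 0.037. All 11 macrophage, all 7 endothelial and all 4 tested bile duct markers had fitted protein differences above 0, as had 49.4 percent of all probe sets. That of Inhba was below 0, and the part of these cell types in the Inhba result was not tested. The mean deviation of the 11 stellate cell and fibroblast markers (10 above the filter) overlapped between protein levels, from -0.23 to 0.13 and from -0.026 to 0.18. Lox had the widest span of that list, from 5.41 on NP to 8.23 on HP-HS-HF, and a fitted protein difference of 0.68 ± 0.199 (SE, adjusted p = 0.414 by limma). The 5 bile duct markers (4 above the filter) overlapped too (-0.094 to -0.0012 and -0.0025 to 0.080). Lymphocyte and neutrophil markers (3 of 7 above the filter) lay between -0.048 and 0.043 on all arrays.

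The filter kept probe sets with a mean above log2 5.14, and all 10 members passed it. It is no test of detection, since 6 of 8 adipose and pancreas markers, which liver should lack, passed it too. Those markers had a mean deviation between -0.056 and 0.045 on all arrays. The number of arrays limits the precision. The 6 arrays correlated with each other at 0.995 to 0.996 (Pearson, over 29214 probe sets), and their medians lay within 0.033.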

How the data were processed

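Liver RNA pools of 6 diets were measured on 1 array each. The deposited values are on a log2 scale and were summarised per probe set with RMA, per the submitters' processing notes, with its version and settings, and the genome build, not given in the sources used here. Of 29214 probe sets, the platform annotation gave 1 symbol to 15310, several to 323 and listed none for 13581. The 20450 probe sets whose mean exceeded the 30th percentile were fitted with limma 3.58.1 in R 4.3.3 (lmFit and eBayes, terms for protein level and background), with Benjamini-Hochberg adjustment over all of them and a threshold of 0.05. The fit has 2 residual degrees of freedom, a prior of 4.37 degrees of freedom and a prior SD of 0.094. No diet has a replicate pool, and p-values rest on the spread among these 6 arrays alone. The genes named are the 10 members, the 5 most alike Inhba, and, from each list, genes past the test and up to 4 of the widest span, of which the text gives a part. Smad2, Smad4, Smad7 and the named cell type markers, Alb and Tat among them, were added after their values were seen. Members, lists and motifs were chosen with earlier results of these data known. The diets' composition is not used here.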

Additional observations from a re-analysis of the deposited data

Results flagged for a closer look

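Opposite differences at 2 levels of the other factor, each larger than 0.132, were found for 3 members. The value 0.132 is the SD of a difference between 2 arrays that follows from the prior SD of 0.094. That prior is shared by all probe sets and is not the spread of these genes. The share of all probe sets that meets this rule was not computed, so nothing is read from the count. With 1 array per diet these single contrasts were not tested. The term for the protein difference with high sucrose minus that with low fat, chosen after seeing the data, was 0.34 ± 0.135 for Inha, -0.22 ± 0.156 for Acvr2a and 0.20 ± 0.18 for Acvr2b (SE, adjusted p = 0.763, 0.805 and 0.84 by limma). Inha was -0.15 from NP to NP-HS and 0.15 from HP to HP-HS, and -0.21 from NP to NP-HS-HF and 0.16 from HP to HP-HS-HF. Its high minus normal protein difference was -0.20 with low fat and 0.17 with high sucrose and high fat. Acvr2a was 0.15 from NP to NP-HS-HF and -0.18 from HP to HP-HS-HF. Acvr2b had a high minus normal protein difference of -0.14 with low fat and 0.21 with high sucrose and high fat.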

How the results depend on the processing

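The count of 9 probe sets past the test for protein was 3 with no filter, 16 with each array centred on its median (12 higher and 4 lower, against 5 and 4), 51 with a variance trend, 0 with an ordinary t statistic and between 0 and 48 when 1 array was left out. It was 0 without NP, HP, NP-HS or HP-HS and 48 without NP-HS-HF or HP-HS-HF. The 2 arrays of 1 background give the same protein fit when either is left out, so each background gives 1 value. For sucrose the count of 0 became 3 with the 4 arrays of the contrast alone and lay between 0 and 3 with 1 array left out. The sucrose count was 1 without NP-HS and 3 without NP-HS-HF or HP-HS-HF. Leaving out either of these last 2 arrays gives the same sucrose fit as the 4 arrays of the contrast alone, so they are 1 alternative. For fat it lay between 0 and 17, with the 17 without NP-HS-HF. For sucrose and fat it lay between 0 and 12, with 12 without NP-HS-HF and 1 without HP-HS-HF. The cause of these changes was not tested. Of the 40 fitted member differences, 0 changed direction with arrays centred on their medians or quantile normalized again, the 2 settings that can move a fitted difference without leaving out arrays, and 18 kept it whichever array was left out. Leaving out an array of the background that a sucrose or fat comparison does not use cannot move its fitted difference, so part of these fits could not reverse it. Of those 18, 12 moved by over 1.5 times in some such fit. These were Inhbe (0.054 to 0.13), Fst (-0.11 to -0.0013), Fstl3 (0.046 to 0.11) and Acvr1b (-0.12 to -0.0046) for protein, Inhbb (0.075 to 0.17) and Fst (-0.20 to -0.064) for sucrose, Fst (0.16 to 0.35) and Acvr1b (-0.32 to -0.15) for fat, and Inhba (0.0093 to 0.24), Inhbc (-0.18 to -0.086), Fst (0.032 to 0.22) and Acvr1b (-0.24 to -0.057) for sucrose and fat. The other 22 had these ranges with 1 array left out. For protein they were Inha from -0.052 to 0.13, Acvr2a from -0.091 to 0.072 and Acvr2b from -0.12 to 0.058. For sucrose they were Inhba from -0.0066 to 0.22, Inhbc from -0.14 to 0.036, Inhbe from -0.073 to 0.061, Inha from -0.17 to 0.17, Fstl3 from -0.053 to 0.012, Acvr1b from -0.0083 to 0.18, Acvr2a from -0.023 to 0.20 and Acvr2b from -0.12 to 0.082. For fat they were Inhba from -0.072 to 0.10, Inhbb from -0.064 to 0.033, Inhbc from -0.17 to 0.0069, Inha from -0.14 to 0.084, Fstl3 from -0.042 to 0.088, Acvr2a from -0.23 to 0.035 and Acvr2b from -0.20 to 0.14. For sucrose and fat they were Inha from -0.19 to 0.14, Fstl3 from -0.063 to 0.067, Acvr2a from -0.15 to 0.12 and Acvr2b from -0.21 to 0.12. None of these 22 had passed the test. No paired analysis was possible because each diet has 1 pool and so no replicate number to pair on, while the background term already compares the protein levels within each background. The term for protein by sucrose has no residual degree of freedom with 1 array left out. No member has another probe set, so that alternative gave no value.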
